A study of Mus musculus with 32 samples.

Results

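The nuclear genes for mitochondrial protein import and for the carriers of the Slc25a family were read in the cell body and the dendrites of single mouse neurons. They were taken as every gene of the combined 3′UTR count table whose symbol starts with Timm, Tomm or Slc25a followed by a number, pseudogenes left out. This gave 71 of 44081 genes, 24 of them import genes and 47 carriers, and both lists were read apart. Hippocampal neurons from embryonic day 18 C57BL/6 mice, with no genetic change or treatment, were grown for 15 days, and from each of 16 neurons the soma and the severed dendrites were aspirated into separate tubes. All 32 samples carry poly-adenylated RNA amplified by the aRNA method, which copies RNA by in vitro transcription, in 3 rounds for neurons 1 to 4 and in 2 rounds for the other 12, with both compartments of a neuron treated alike. The question was which of these RNAs are found in dendrites, and at what level relative to the parent soma. No label ties a neuron to an animal or a culture, so the p-values measure the spread between these neurons. Titles of some neurons share a first letter whose meaning is unknown, and groups this may form were not modelled.

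Nearly all mitochondrial proteins are encoded in the nucleus and enter the organelle after or during their synthesis in the cytosol. Receptors and a channel in the outer membrane, the TOM complex, take up the precursor. The presequence translocase TIM23 then passes proteins with an N-terminal signal into or across the inner membrane, while small chaperones of the intermembrane space carry hydrophobic precursors to the carrier translocase TIM22. The carriers of the Slc25a family are the main clients of that last route, and once in the inner membrane they exchange ADP for ATP, bring in phosphate, and move amino acids, organic acids, carnitine esters, cofactors and iron. Mitochondria are present along dendrites, and such data can show gene by gene whether the RNAs for their proteins are found there. How these RNAs come to be there was not tested.

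Reads on 3′UTRs numbered 646521 to 6954420 per dendrite library and 925525 to 21169974 per soma library. Dendrite libraries held 1570 to 9871 genes with at least 10 reads and soma libraries 6041 to 12185. The dendrite libraries of neurons 15 and 16 stood apart, with 1570 and 2485 such genes and the highest shares of mitochondrially encoded RNA, 35.8% and 32.4%. Without neuron 15 the number of carriers called and the values of Slc25a3, Slc25a4 and Slc25a5 move, and both are given below. Mitochondrially encoded RNAs took between 2.39% and 35.8% of the dendrite reads and between 0.277% and 8.12% of the soma reads. The 5 neuron markers (Map2, Tubb3, Snap25, Grin1 and Neurod6), taken as a sum, had reads in every library. The summed level was 1686 to 8645 CPM in dendrites and 2095 to 6313 CPM in somas. CPM stands here for the read count of a gene over the library size after TMM scaling. The summed astrocyte markers (Gfap, Aqp4, Slc1a3, Aldh1l1 and Gja1) reached 663 CPM in dendrites and 146 CPM in somas, with medians of 33.1 and 13.1 CPM. Summed markers of oligodendrocytes, microglia and endothelium had medians of 8.30, 7.30 and 2.11 CPM in dendrites and of 1.59, 0.260 and 0.242 CPM in somas, and the endothelial marker Cldn5 was at 0 in all libraries. The part of RNA from other cells in the results was not tested. A dendrite sample is a cut process of unknown volume, so fewer molecules collected and fewer molecules per volume cannot be told apart.

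A larger share of the import genes than of the carriers was found in nearly all libraries of a compartment. With presence set at 1 read or more, 19 of 24 import genes were present in at least 15 somas and 11 in at least 15 dendrites. Of the 47 carriers, 21 were present in at least 15 somas and 7 in at least 15 dendrites. Among all 10880 genes tested below, 17.1% were present in at least 15 dendrites and 57.6% in at least 15 somas. Of the members in that test, these shares were 52.4% and 90.5% for 21 import genes and 23.3% and 70% for 30 carriers. The 11 import genes were the intermembrane chaperones Timm8b, Timm10, Timm10b and Timm13, the TIM23 subunits Timm17a and Timm17b, and Tomm5, Tomm6, Tomm7, Tomm20 and Tomm40l of the outer membrane. The 7 carriers were the ADP/ATP exchangers Slc25a4 and Slc25a5, the phosphate carrier Slc25a3, the aspartate/glutamate carrier Slc25a12, the glutamate carrier Slc25a22, the ATP-magnesium/phosphate carrier Slc25a23 and the NAD carrier Slc25a51. A single dendrite library held between 10 and 22 of the 24 import genes (median 20), and its soma between 18 and 23 (median 22). For the 47 carriers the numbers were 6 to 34 in dendrites (median 23.5) and 26 to 39 in somas (median 32). The lowest dendrite value of both lists came from neuron 15.

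**Figure D1:**
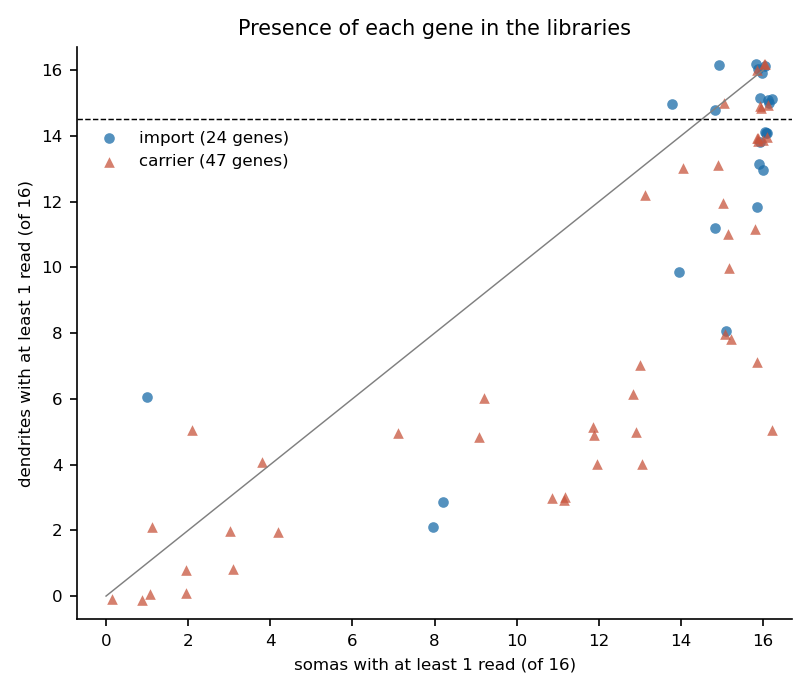
For each of the 24 import genes (circles) and 47 carriers (triangles), the number of somas with at least 1 read (x axis, of 16) is plotted against the number of dendrite samples with at least 1 read (y axis, of 16), with a small jitter so that points do not hide each other. The grey line marks equal numbers and the dashed line the limit of 15 dendrites, above which 11 import genes and 7 carriers lie.

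Presence depended on depth. With every library thinned to 646521 reads, 7 import genes and 5 carriers were present in at least 15 dendrites. With 10 reads required in place of 1, 4 of each list were. The shares of all genes under these limits are not given. Whether the members drop more or less than other genes was not tested. The 4 import genes with at least 10 reads in 15 or more dendrites were Timm8b, Timm10b, Timm13 and Tomm7, and the 4 carriers were Slc25a3, Slc25a4, Slc25a5 and Slc25a23.

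Compartments were then compared within neurons by edgeR's quasi-likelihood test with neuron as a block, over 10880 genes, those that had a read in 16 or more of the 32 samples. A gene was called at a Benjamini-Hochberg adjusted p of at most 0.05. Of all genes tested, 0.827% passed with the higher level in dendrites and 5.71% with the higher level in somas. The median gene had a log2 fold change, dendrites over soma, of -1.49. Changes of the members are therefore given both as fitted and relative to that median gene. The test took in 21 import genes and 30 carriers. The 3 import genes left out were Timm21, Timm8a2 and Tomm20l. The 17 carriers left out were Slc25a2, Slc25a13, Slc25a15, Slc25a18, Slc25a21, Slc25a24, Slc25a26, Slc25a27, Slc25a30, Slc25a31, Slc25a34, Slc25a41, Slc25a43, Slc25a45, Slc25a47, Slc25a48 and Slc25a54. Of these only Slc25a41 had 0 reads in all libraries.

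No import gene was called in either direction by edgeR, and 4 carriers were called higher in somas with 0 called higher in dendrites. An unadjusted p under 0.05 was reached by 1 import gene toward dendrites (Tomm7) and 2 toward somas (Timm44 and Tomm70a), against 0 and 17 of the carriers. Of all genes tested, 3.55% had such a p toward dendrites and 26.7% toward somas. DESeq2 called 1 import gene toward dendrites (Tomm7) and 4 toward somas, and limma-voom 1 (Tomm7) and 0. The 4 were Timm44 (DESeq2 adjusted p = 9.66e-07), Timm8a1 (0.00390), Tomm70a (0.0137) and Tomm22 (0.0254). For the carriers, DESeq2 called 22 higher in somas and limma-voom 6, and both called 0 higher in dendrites. Over all genes, 4.26% passed toward dendrites and 46.2% toward somas with DESeq2, against 5.97% and 14.8% with limma-voom. The share of 4 in 30 carriers stands beside 5.71% of all genes. The median log2 fold change was -0.56 over the import genes, 0.93 above the median gene, and 18 of 21 lay above the median gene. Over the carriers it was -2.48, which is 0.99 below the median gene, and 10 of 30 lay above it. Without neuron 15 the medians were 0.96 above and 0.99 below. Under the 4 other scalings (DESeq2 size factors, total reads, the median gene set near 0 and the ERCC spike-ins) the import median stayed 0.76 to 0.97 above the median gene and the carrier median 0.73 to 0.99 below. Other models brought both lists nearer to the median gene. The import median was 0.76 above it with DESeq2, 0.37 with limma-voom and 0.38 without the neuron as a block, and the carrier median 0.62, 0.53 and 0.44 below it. The fit scaled by the spike-ins takes in 14 neurons, since neurons 1 and 2 received none per the labels. The median gene itself stood at -3.96 in that fit, where 11 import genes and 26 carriers were called higher in somas, beside 61.4% of all genes.

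**Figure D2:**
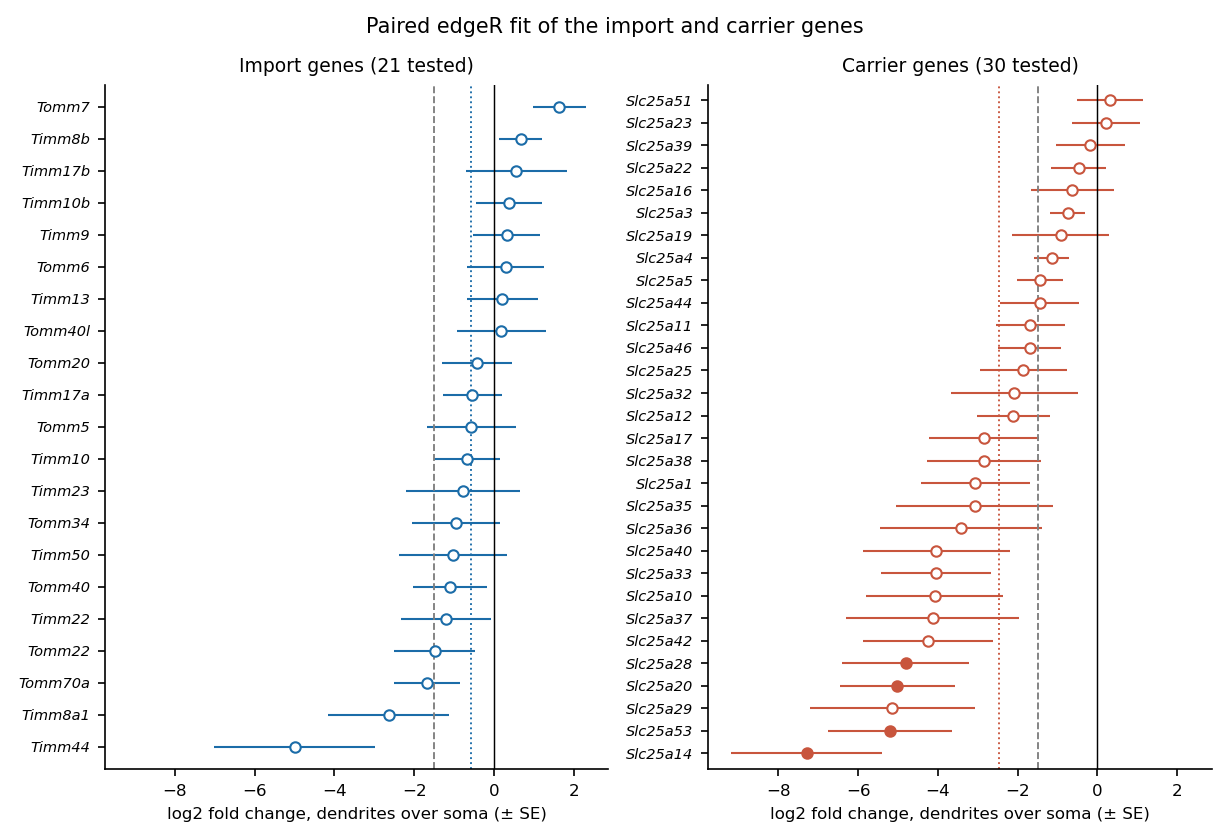
Fitted log2 fold change, dendrites over soma, of the 21 import genes (left) and 30 carriers (right) tested in 16 neurons, with bars of 1 SE and filled points for an adjusted p of at most 0.05. The solid line marks 0, the dashed line the median gene at -1.49 and the dotted line the median of the list, -0.56 for import genes and -2.48 for carriers, and only 4 carriers are filled.

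Within single neurons the order of both lists was mostly the same. The median difference between dendrites and soma over the import genes, relative to all genes of that neuron, was above 0 in 11 of 16 neurons and ranged from -1.70 to 2.50 on the log2 scale (median 0.42). Over the carriers it was below 0 in 15 of 16 neurons and ranged from -2.98 to 0.51 (median -0.58). The import median exceeded the carrier median in 14 of 16 neurons, by 1.02 ± 0.94 (SD, n = 16). The exceptions were neuron 2, with a difference of -0.12, and neuron 12, with -0.78. The difference was 1.02 ± 0.96 (SD, n = 12) in the neurons of 2 rounds and 1.04 ± 1.02 (SD, n = 4) in those of 3 rounds. These per-neuron values use log2 CPM with a prior count of 2, describe the lists, and carry no test.

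**Figure D3:**
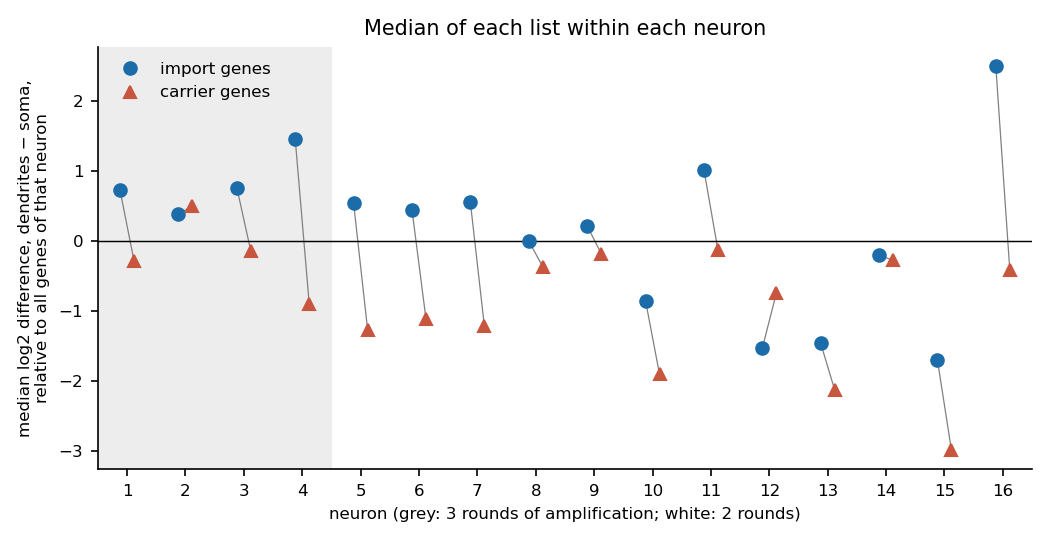
Median log2 difference, dendrites minus soma, over the import genes tested (circles) and the carriers tested (triangles), relative to the median of all genes tested, for each of 16 neurons on the x axis. Grey shading marks neurons 1 to 4 with 3 rounds of amplification. The circle lies above the triangle in 14 neurons and below it in neurons 2 and 12.

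The outer membrane translocase held the import gene with the highest fitted value. Tomm7, a small subunit of the TOM complex (chromosome 5, 23838944 to 23844161 on the minus strand of mm10), had between 6.47 and 2675 CPM in dendrites (median 262) and between 0 and 311 CPM in somas (median 109). It was higher in dendrites in 13 of 16 neurons, but the ranges overlapped, and its 1 soma at 0 was that of neuron 12. The dendrites of neuron 15, where few other members were found, had the highest value, and without that neuron the log2 fold change was 1.80 (adjusted p = 0.0920). Over all neurons it was 1.64 (SE 0.66, edgeR adjusted p = 0.101), which did not pass the threshold. DESeq2 gave it an adjusted p of 0.0151, limma-voom one of 0.0130, and the edgeR fit of exon counts one of 0.0349. With the ERCC spike-ins as the scale, its log2 fold change was -0.81 (edgeR adjusted p = 0.536) and that of the median gene -3.96. The direction therefore rests on the scale, while Tomm7 stood above the median gene in both fits.

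The receptors and the channel of the same complex had lower fitted values. Tomm20, a receptor for presequences, had 0 to 413 CPM in dendrites (median 114) and 25.3 to 242 CPM in somas (median 126), and fitted at -0.43 (SE 0.88, adjusted p = 0.742). Tomm22, the central receptor, had 0 to 262 CPM (median 72.1) and 42.8 to 243 CPM (median 120), with -1.48 (SE 1.02, adjusted p = 0.302). Tomm40, the channel itself, had 0 to 265 CPM (median 65.7) and 44.2 to 210 CPM (median 109), with -1.09 (SE 0.93, adjusted p = 0.407). In each of these the dendrite values spread over the whole range of the somas and down to 0. Tomm70a, the receptor for carriers and other internal-signal proteins, had 0 to 1044 CPM in dendrites (median 245) and 202 to 670 CPM in somas (median 377). Its somas were uniform and its dendrites were not, since the dendrites of neurons 10 and 15 held no read and those of neurons 1 and 4 held more than any soma. Its log2 fold change was -1.68 (SE 0.83, unadjusted p = 0.0490, edgeR adjusted p = 0.164). The other subunits tested were Tomm5 at -0.56, Tomm6 at 0.30 and Tomm40l at 0.19, none called. Tomm34, a co-chaperone of the cytosol that bears the name of the complex without being part of it, was at -0.95.

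The small chaperones of the intermembrane space stood highest of the import groups relative to the median gene, with a median of 0.27 over 6 genes, 1.76 above it, though none was called. Timm8b, a subunit of the Tim8-Tim13 chaperone (chromosome 9, 50603910 to 50605320 on the plus strand), was the most even of them. It had 134 to 863 CPM in dendrites (median 418) and 108 to 463 CPM in somas (median 243), had 10 reads or more in all 32 libraries, and favoured the dendrites in 12 of 16 neurons. Its mean was 448 ± 227 CPM in dendrites and 262.6 ± 91.97 CPM in somas (SD, n = 16 each), and its log2 fold change of 0.67 (SE 0.54, edgeR adjusted p = 0.376) did not pass. Its partner Timm13 had 0 to 297 CPM in dendrites (median 50.1) and 0.921 to 134 CPM in somas (median 55.9), which fitted as 0.21 (SE 0.89, adjusted p = 0.883). Timm9 had 0 to 898 CPM in dendrites (median 137) and 18.0 to 284 CPM in somas (median 128), with 0.33 (SE 0.84, adjusted p = 0.800). Timm10, with which Timm9 forms the Tim9-Tim10 chaperone, had 0.580 to 958 CPM in dendrites (median 83.1) and 28.4 to 267 CPM in somas (median 115), with -0.68 (SE 0.84, adjusted p = 0.572). The highest dendrite values of Timm9 and Timm10, like that of Tomm7, were in neuron 15. Timm10b, a TIM22-bound relative, stood at 0.38 (SE 0.84, adjusted p = 0.763) with the dendrites ahead in 10 of 16 neurons. Timm8a1 stood at -2.63 (SE 1.52, adjusted p = 0.212), with a median of 0.773 CPM in dendrites and 11.4 CPM in somas. Timm8a2 was not tested. It had reads in 6 dendrites and 1 soma, at most 70.3 CPM and 0.222 CPM.

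Subunits of the presequence translocase had a median of -0.78 over 5 genes, 0.72 above the median gene, which was lower than the medians of the outer membrane translocase (-0.50 over 8 genes) and of the small chaperones. The paralogs Timm17a and Timm17b, which form the inner membrane channel with Timm23, had log2 fold changes of -0.54 (SE 0.74) and 0.56 (SE 1.27). Timm17a had 0.580 to 501 CPM in dendrites (median 184) and 50.2 to 496 CPM in somas (median 207), and Timm17b had 0 to 209 CPM (median 29.4) and 0 to 43.6 CPM (median 15.0). Timm23 stood at -0.78 (SE 1.44) and Timm50, its receptor in the intermembrane space, at -1.03 (SE 1.35). Adjusted p-values of these 4 genes were 0.594 to 0.773. The lowest import gene was Timm44, which holds the mitochondrial Hsp70 at the channel exit (chromosome 8, 4259731 to 4275913 on the minus strand). It had 0 to 310 CPM in dendrites (median 0.475) and 0 to 116 CPM in somas (median 25.8), and was present in 8 dendrites and 15 somas. The value of 310 CPM was in the dendrites of neuron 12, whose soma had none. Its log2 fold change was -5.00 (SE 2.02, edgeR adjusted p = 0.0909), and -0.15 in the fit without the neuron as a block, where means of 33.2 and 36.9 CPM face each other. Without neuron 5 it was called higher in somas. Timm22, the channel that inserts carriers, had 0 to 360 CPM in dendrites (median 47.7) and 9.10 to 235 CPM in somas (median 62.4), and fitted at -1.20 (SE 1.13, adjusted p = 0.452).

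**Figure D4:**
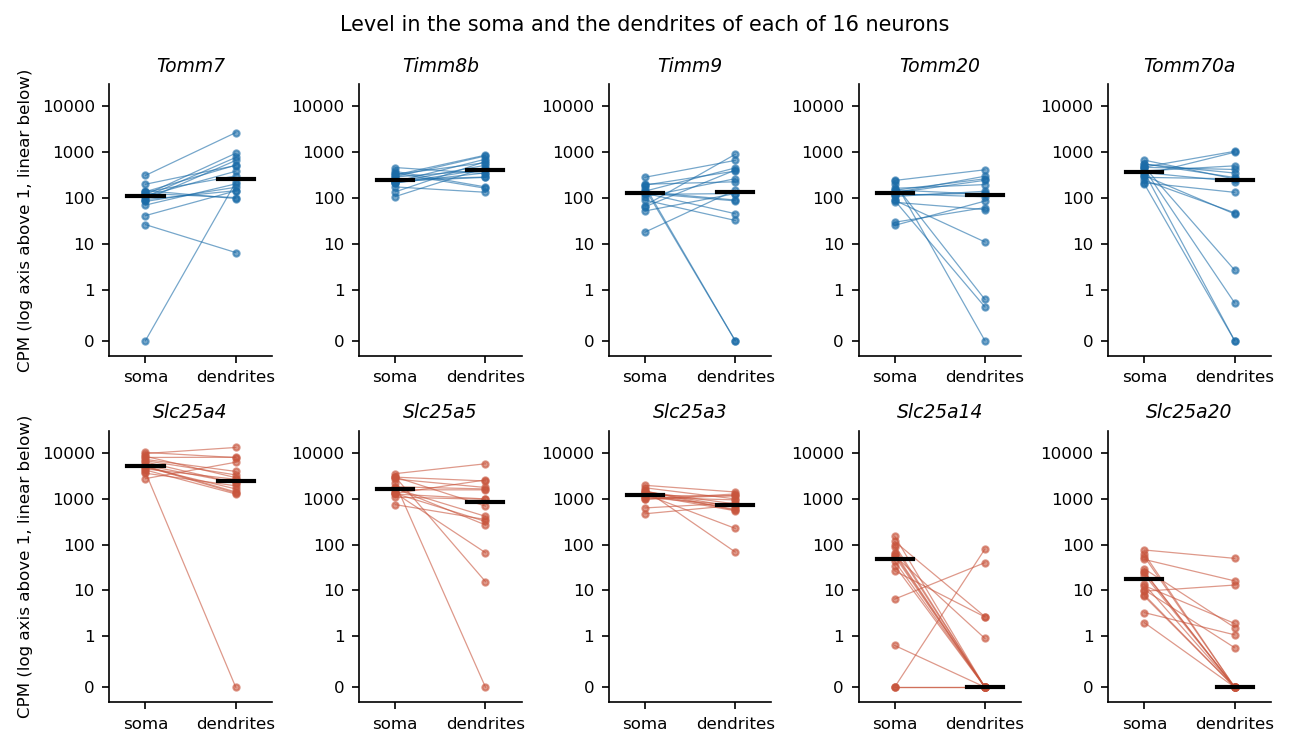
Level in CPM of 10 members in the soma (left of each panel) and the dendrites (right) of 16 neurons, with a line for each neuron and a black bar for the median of each compartment. The axis is logarithmic above 1 CPM and linear below. Tomm7, Timm8b and Timm9 have the higher median in dendrites. Slc25a4 and Slc25a5 fall to 0 in the dendrites of 1 neuron, and Slc25a14 and Slc25a20 have a dendrite median of 0.

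The 4 carriers called higher in somas were Slc25a14, Slc25a20, Slc25a53 and Slc25a28. Slc25a14, an uncoupling protein relative of the brain (chromosome X, 48623413 to 48662294 on the plus strand), had 0 CPM in 11 of 16 dendrite samples and at most 79.7 CPM, in neuron 6. Somas ranged from 0 to 152 CPM (median 49.4). Of the 14 neurons with any read, 12 had more in the soma. Its mean was 7.89 ± 21.6 CPM in dendrites and 50.42 ± 45.995 CPM in somas (SD, n = 16 each). The fitted log2 fold change was -7.29 (SE 1.90, edgeR adjusted p = 0.0159), and -2.68 without the neuron as a block, so the size of the change rests on the fit. Slc25a14 was called in all 16 fits that left out 1 neuron.

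Slc25a20, which exchanges carnitine for acylcarnitine and so feeds fatty acids to oxidation (chromosome 9, 108662088 to 108684641 on the plus strand), was found in all 16 somas at 1.97 to 76.0 CPM (median 17.6). In dendrites it had reads in 7 samples, at most 50.0 CPM in neuron 11. It was higher in the soma in 15 of 16 neurons, and fitted at -5.02 (SE 1.43, edgeR adjusted p = 0.0251). Slc25a53 had 0 to 163 CPM in dendrites (median 0.290) and 0 to 179 CPM in somas (median 30.5), a fitted change of -5.20 (SE 1.55, edgeR adjusted p = 0.0307) and a higher soma in 13 of 15 neurons. The mitoferrin Slc25a28, an iron importer, had 0 to 96.1 CPM in dendrites (median 0.386) and 0 to 114 CPM in somas (median 11.8), with -4.81 (SE 1.59, edgeR adjusted p = 0.0464). For Slc25a20, Slc25a53 and Slc25a28 a few dendrite samples had values well within the soma range, that of neuron 14 among them, while the dendrite medians were below 1 CPM. Without the neuron as a block the log2 fold changes were -2.24 for Slc25a20, -1.69 for Slc25a53 and -1.35 for Slc25a28, and none was called. Slc25a20 was called in 11 of the 16 fits without 1 neuron, Slc25a53 in 9 and Slc25a28 in 3. The number of carriers called ran from 1, without neuron 15 or without neuron 16, to 8 without neuron 2, fits in which 2.17%, 1.19% and 8.71% of all genes were called higher in somas. It was 2 without neuron 1, 3, 4, 10, 12 or 13.

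The carriers with the most reads were lower in dendrites in most neurons, but did not pass the threshold in the paired edgeR fit. Slc25a4, an ADP/ATP exchanger abundant in heart, muscle and brain (chromosome 8, 46206797 to 46211284 on the minus strand), had 0 to 13116 CPM in dendrites (median 2438) and 2744 to 10220.4 CPM in somas (median 5269). It was higher in the soma in 13 of 16 neurons, and fitted at -1.15 (SE 0.43, unadjusted p = 0.0109, edgeR adjusted p = 0.0823), 0.34 above the median gene. It was called higher in somas by edgeR with DESeq2 size factors (adjusted p = 0.0396), with no filter beyond 1 read (adjusted p = 0.0186) and with the ERCC spike-ins (adjusted p = 5.89e-05). Its paralog Slc25a5 (chromosome X, 36795651 to 36798807 on the plus strand) had 0 to 5778 CPM in dendrites (median 831) and 743 to 3524 CPM in somas (median 1662). The soma was ahead in 14 of 16 neurons. Its log2 fold change was -1.44 (SE 0.58, edgeR adjusted p = 0.102). Both had 0 reads in the dendrites of neuron 15. Without that neuron the log2 fold changes were -0.67 for Slc25a4 (adjusted p = 0.0620) and -0.91 for Slc25a5 (adjusted p = 0.174). In neurons 2 and 3, by contrast, the dendrites held more of both than the soma did. The phosphate carrier Slc25a3 (chromosome 10, 91116574 to 91124059 on the minus strand) was found in all 32 libraries, with 68.8 to 1401 CPM in dendrites (median 744) and 469 to 1959 CPM in somas (median 1235). Its log2 fold change was -0.74 (SE 0.44, adjusted p = 0.233), and -0.31 without neuron 15 (adjusted p = 0.511). DESeq2 called these 3 genes higher in somas, with adjusted p-values of 0.0220 for Slc25a3, 0.0166 for Slc25a4 and 0.0109 for Slc25a5.

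The aspartate/glutamate carrier Slc25a12, part of the malate-aspartate shuttle, had 0.662 to 484 CPM in dendrites (median 120) and 75.0 to 659 CPM in somas (median 364), and fitted at -2.11 (SE 0.91, adjusted p = 0.117). The glutamate carrier Slc25a22 had 0 to 520 CPM (median 144) and 2.18 to 392 CPM (median 183), with -0.47 (SE 0.70, adjusted p = 0.644), and split evenly, higher in dendrites in 8 of 16 neurons. Slc25a46, an outer membrane relative with a part in fission and fusion, had 0 to 850.0 CPM in dendrites (median 74.7) and 8.73 to 477 CPM in somas (median 251), with -1.70 (SE 0.79, adjusted p = 0.141). The oxoglutarate carrier Slc25a11 had 0 to 366 CPM in dendrites (median 72.2) and 48.1 to 390 CPM in somas (median 202). It fitted at -1.68 (SE 0.86, edgeR adjusted p = 0.174). The pyrimidine nucleotide carrier Slc25a33 was found in all somas, at 16.8 to 401 CPM (median 120), and in 11 dendrite samples, at most 226 CPM (median 5.33). Its log2 fold change was -4.05 (SE 1.38, edgeR adjusted p = 0.0591), with a higher soma in 14 of 16 neurons. DESeq2 gave Slc25a33 an adjusted p of 3.90e-07, limma-voom one of 0.0103, and edgeR with DESeq2 size factors one of 0.0366. It was called higher in somas in 4 of the 12 fits with other settings. In the paired edgeR fit of all neurons only Slc25a51 and Slc25a23 had values above 0. Both were below 0 with ERCC scaling, and Slc25a23 also with DESeq2, with its size factors and with 2 rounds only. Slc25a51 stood at 0.32 (SE 0.82, adjusted p = 0.800), with medians of 137 CPM in dendrites and 75.6 CPM in somas, and Slc25a23 at 0.21 (SE 0.85, adjusted p = 0.879), with 66.6 and 55.9 CPM.

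By substrate, the group set for amino acids and carnitine had a median log2 fold change of -3.45 over 6 genes. Its members were Slc25a20, Slc25a29, Slc25a38, Slc25a39, Slc25a40 and Slc25a44. Of these, 4 had an unadjusted edgeR p under 0.05 toward the soma, beside 26.7% of all genes. The group name does not cover Slc25a39 (-0.18) and Slc25a40 (-4.04), which carry glutathione. The 3 tested carriers of citrate, dicarboxylates and oxoglutarate (Slc25a1, Slc25a10 and Slc25a11) had a median of -3.06, and the mitoferrins Slc25a28 and Slc25a37 one of -4.47. Carriers of cofactors and nucleotides had a median of -2.46 over 8 genes, among them the peroxisomal Slc25a17 (-2.85). The groups nearest to 0 were the phosphate carrier at -0.74, the ATP-magnesium/phosphate carriers Slc25a23 and Slc25a25 with a median of -0.83, and the pairs for ADP/ATP and for aspartate and glutamate, each with a median of -1.29.

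The typical carrier tested received fewer reads than the typical import gene, and the fold change differed between genes of few and of many reads. The median of the mean CPM was 35.3 over the carriers tested and 79.9 over the import genes, as read numbers and not as levels per length. With all genes split into 10 bins of 1088 by mean CPM, the median log2 fold change was not monotone, at -0.068 in bin 1, which has the fewest reads and no member, -1.61 in bin 2, -2.35 in bin 5 and -0.72 in bin 10, which has the most. Set against the median gene of its own bin, the median carrier was still 0.98 below and the median import gene 1.05 above, with 6 of 30 carriers and 17 of 21 import genes above. The 18 carriers of bins 6 to 10 had a median 0.072 below the median of all genes tested, and the 12 of bins 1 to 5 one of 2.62 below it. In a fit restricted to genes with at least 10 reads in at least 16 samples, the carrier median was 0.085 below the median gene and 1 carrier, Slc25a20, was called beside 2.55% of all genes, while the import median was 1.04 above. In the fit of the 4 neurons with 3 rounds alone, the carrier median was 0.063 above the median gene and the import median 1.20 above. With no filter beyond 1 read the import median was 0.49 below the median gene of that fit, which stood at -0.17 over 31102 genes.

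**Figure D5:**
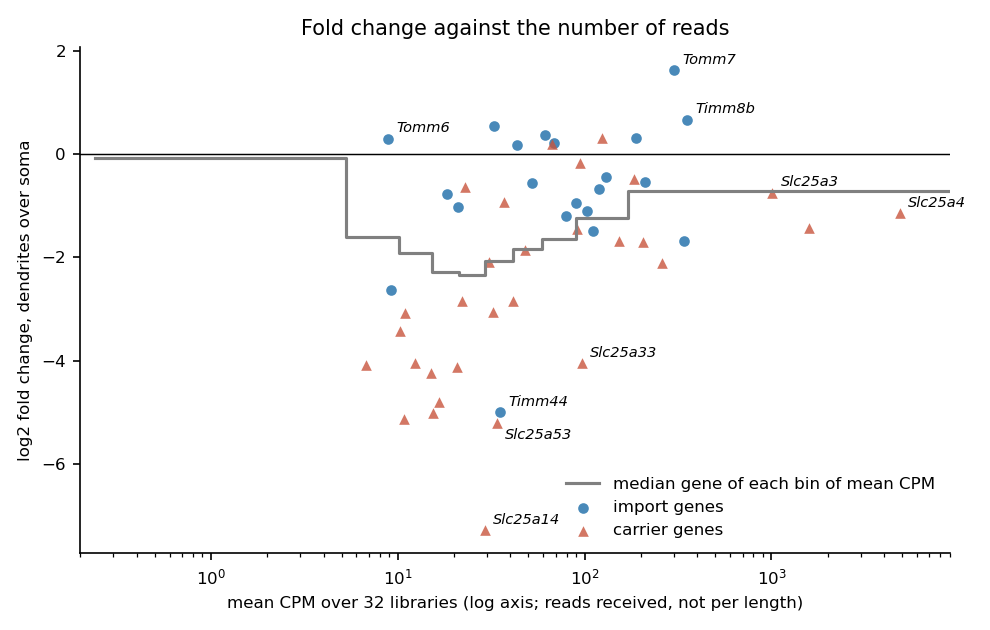
Log2 fold change, dendrites over soma, of the members tested (y axis) against mean CPM over 32 libraries (x axis, logarithmic), with import genes as circles and carriers as triangles. The grey steps give the median gene of each of 10 bins of mean CPM, bin 1 on the left. Most circles lie above the steps and 24 of 30 triangles lie below them.

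Summed over a list, the import genes took 1607 to 5026 CPM in dendrites (median 2435) and 1503 to 3113 CPM in somas (median 2029). The carriers took 208 to 22825 CPM in dendrites (median 5521) and 5835 to 17404 CPM in somas (median 10213). Slc25a3, Slc25a4 and Slc25a5 hold most of the reads of the carriers, and the value of 208 CPM is that of neuron 15. As a share of the normalised reads of both compartments that fell in the dendrites, averaged over neurons with at least 10 reads, the median was 0.398 over the import genes and 0.256 over the carriers. The share was 0.685 ± 0.197 for Tomm7 and 0.566 ± 0.132 for Timm8b (SD, n = 16 each), and 0.293 ± 0.146 for Slc25a4, 0.279 ± 0.180 for Slc25a5 and 0.347 ± 0.145 for Slc25a3 (SD, n = 16 each).

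Other genes of the pathway were read from a list of 31, of which 29 were tested. Their median log2 fold change was -0.94, 0.56 above the median gene, and 18 of 29 lay above it. None was called by edgeR, and an unadjusted p under 0.05 was reached by 1 toward dendrites and by 8 toward somas, beside 3.55% and 26.7% of all genes. The highest was Romo1, a small inner membrane protein, at 1.14 (SE 0.56, adjusted p = 0.161). The matrix chaperones Hspd1 and Hspe1 stood at -0.13 (SE 0.62) and 0.03 (SE 0.56) and the import motor Hspa9 at -0.94 (SE 0.73). The lowest were Grpel2, a nucleotide exchange factor of that motor, at -4.82 (SE 1.71, adjusted p = 0.0629), Mtx1, of the outer membrane sorting machinery, at -4.61 (SE 1.80, adjusted p = 0.0802), and Chchd4, the oxidoreductase that folds the small chaperones, at -4.13 (SE 1.39, adjusted p = 0.0569). The porins Vdac1, Vdac2 and Vdac3 stood at -0.87, -1.81 and -2.02. For scale, the 36 tested subunits of complex I had a median of 0.74, 2.24 above the median gene. Of them 3 were called higher in dendrites, beside 0.827% of all genes. The 76 mitochondrial ribosomal proteins had a median of -1.50, 0.012 below the median gene. Of them 4 were called higher in somas, beside 5.71% of all genes.

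Amplification rounds were tested as an interaction with compartment. Of the 51 members, 0 passed the adjusted threshold in edgeR and 3 had an unadjusted p under 0.05, Slc25a29 (p = 0.0199), Slc25a12 (p = 0.0388) and Slc25a5 (p = 0.0479), each with an adjusted p of 1. Over all genes 288 of 10880 had an unadjusted p under 0.05 and 0 passed. These 3 genes are named because of that result.

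A second table counts reads on the 3′ ends of each gene apart, as the last 500 nt of each end with closer ends merged. It numbers the ends and gives no position, so which end is the distal one was not read from it. The 71 members have 180 ends in it, 48 members with several and 23 with 1. For 20 members (7 import genes and 13 carriers) with at least 10 reads on the main pair of ends in both compartments of at least 5 neurons, the share of the higher-numbered end was compared within neurons by an exact sign-flip permutation test of the signed-rank sum, two-sided. At an unadjusted p under 0.1, 5 of 20 members passed, beside 8.4% of the 3522 genes tested, and 0 of all genes passed an adjusted p of 0.05. The 5 were Slc25a11, Slc25a5, Slc25a51, Slc25a3 and Timm10b, and in each the mean share of the higher-numbered end was lower in dendrites.

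The oxoglutarate carrier Slc25a11 had a mean share of 8.04e-05 in dendrites and 0.00324 in somas (n = 12 neurons, lower in dendrites in 9 and tied in the rest, exact p = 0.00391, adjusted p = 0.821). At the share of its own soma the end would have had under 3 dendrite reads in 10 of the 12 neurons, and it had 0 in all 10, so a lower share in dendrites was not detectable there. For Slc25a5 the share was 0.00907 ± 0.0102 in dendrites and 0.0239 ± 0.0227 in somas (SD, n = 15, lower in 11, exact p = 0.0107, adjusted p = 0.821). Slc25a51 had 0.00157 ± 0.00390 and 0.0476 ± 0.0712 (SD, n = 13, lower in 6 and higher in 0, exact p = 0.03125, adjusted p = 0.910), and in 8 of its 13 neurons under 3 dendrite reads would have been found at the soma share. Each of these ends carries under 5% of the reads of its pair, so the differences are between minor ends. Slc25a3 had 0.0226 ± 0.0221 in dendrites and 0.0313 ± 0.0217 in somas (SD, n = 16, lower in 12, exact p = 0.0654, adjusted p = 0.972). In Timm10b the higher-numbered end was the main one, at 0.777 ± 0.239 in dendrites and 0.903 ± 0.147 in somas (SD, n = 15, lower in 8 and higher in 4, exact p = 0.0771, adjusted p = 1). In Slc25a4 the shares were 0.865 ± 0.0565 and 0.868 ± 0.0483 (SD, n = 15, exact p = 0.524), with a paired difference of -0.00305 ± 0.0542.

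Some of these counts could hold reads of other genes. Over the last 500 nt of their transcripts, Slc25a3, Slc25a5, Timm23 and Tomm6 match transcripts of other genes over at least 100 nt at 95% identity or more, and since only uniquely mapped reads were counted, their values are uncertain. Exons of Slc25a47, Slc25a51, Timm10b, Timm23 and Tomm6 overlap those of another gene on the same strand, and reads there cannot be told apart. The libraries were stranded. For Slc25a36 the gene counts and the counts of 3′ ends differ. It had 1129 reads in the gene counts of all libraries. Its main pair of ends had 2085 reads in dendrites and 8264 in somas of 11 neurons. Its fitted value, which enters the median of the cofactor and nucleotide carriers, is therefore uncertain, and the cause was not tested.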

How the data were processed

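All deposited values used here are counts, whole numbers of reads per feature. Per the labels and the study's methods, the authors trimmed adapters and poly-A, aligned the reads to mm10 with STAR (2.4.0 in the submitters' processing notes) and counted uniquely mapped reads with VERSE on the union of each gene's 3′UTRs, on the terminal 500 nt at every 3′ end, and on exons (23453 genes) and ERCC spike-ins. The labels give a spike-in dilution of 0 for neurons 1 and 2, so the fit scaled by spike-ins used the other 14. The deposited counts are not normalized and carry no molecular identifiers, so an amplified molecule can give many reads. Groups came from the labelled compartment, with neuron (cell number) as the pairing.

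Genes were compared with R 4.3.3, edgeR 4.0.16 (TMM, robust quasi-likelihood fit), DESeq2 1.42.0 and limma 3.58.1, and all other values with Python 3.11.15, NumPy 2.4.6, pandas 2.3.3 and SciPy 1.17.1. Positions come from GENCODE M21 on GRCm38 (mm10), and near copies from BLAST 2.17.0. Shares of reads in dendrites use DESeq2 size factors. The common dispersion of the paired fit was 2.07.

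Soma and dendrites of a pair are parts of 1 neuron, which is where the pairing comes from. Deviations from the compartment means correlated by 0.0854 ± 0.0766 (SD, n = 16) within neurons and by -0.00527 ± 0.0529 (SD, n = 240) between different neurons. No pair of libraries of a compartment held identical counts (0 of 120 each). On simulated counts (10262 genes fitted, 172 of them changed by 4 on the log2 scale) the paired edgeR fit made 84 correct calls, with the true sign in 84, and 3 false ones. The isoform test was also tested on simulated data.

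The members, the lists and the alternatives were chosen with earlier results of these data known. Fitted values were given to the members called and to the 5 import genes and 5 carriers with the smallest p in each direction. They were also given to a fixed core of receptors, channels, chaperones and main carriers, and to members with a shift between 3′ ends. Timm10b, Timm23 and Timm50 are given without CPM. Other settings tried were the tool, the scale, the filter on reads, exon counts, the fit without the block, the rounds, each neuron left out in turn, the presence limits, the minimum reads and pairs of the end comparison and the scaling and minimum of the dendritic share. The comparison with genes in the same of 10 bins of mean CPM was added after seeing the data. Sequences were not used here.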

Additional observations from a re-analysis of the deposited data

How the results depend on the processing

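No alternative called a carrier higher in dendrites. Import genes called higher in dendrites numbered 1 (Tomm7) with DESeq2, limma-voom, exon counts and no replicate block. They numbered 2 (Tomm7 and Timm8b) with the median gene near 0. Of all genes, 4.26%, 5.97%, 1%, 1.44% and 5.42% passed toward dendrites in these fits, in that order. Import genes called higher in somas numbered 4 with DESeq2 and 11 with ERCC scaling. Carriers called higher in somas numbered 22 with DESeq2, 8 with DESeq2 size factors, 1 with the median gene near 0, 26 with ERCC scaling, 2 with no filter, 1 with at least 10 reads in 16 samples, 2 in the neurons of 2 rounds and 0 in those of 3 rounds. In the same order these fits called 46.2%, 9.26%, 0.818%, 61.4%, 0.46%, 2.55%, 3.25% and 0.0092% of all genes higher in somas. Without the neuron as a block, 0 carriers were called, so the paired and unpaired fits differ here. The import median moved to -0.49 relative to the median gene with no filter, 0.37 with limma-voom and 0.38 without the block. The carrier median moved to -1.54 with no filter, -0.62 with DESeq2, -0.53 with limma-voom, -0.44 without the block, -0.085 with at least 10 reads and 0.063 with 3 rounds only. The cause of these moves was not tested.

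Leaving out 1 neuron gave 0 to 1 import genes called higher in dendrites (1, Tomm7, without neuron 13). It gave 0 to 1 import genes higher in somas (1, Timm44, without neuron 5), and 1 to 8 carriers. Of all genes, 0.772% passed toward dendrites without neuron 13 and 9.1% toward somas without neuron 5. Over the 16 fits, 1.19% to 9.1% of all genes passed toward somas. The import median stayed 0.78 to 1.10 above the median gene and the carrier median at -1.29 to -0.79. Slc25a14 kept its call in all 16 of these fits. With at least 10 reads in 16 samples it did not enter the fit, and its adjusted p was 0.0548 with 2 rounds only and 0.575 with 3 rounds only.

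Import genes present in at least 15 dendrites numbered 11, but 4 with at least 10 reads, 5 in all 16 dendrites and 7 after thinning. Carriers numbered 7, but 4 with at least 10 reads, 12 in at least 14 dendrites and 3 in all 16. Shares of all genes under these other limits are not given here. The medians of the dendritic share and the count of shifted ends stayed close under every alternative tried (4 or 5 members shifted).

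Among the members picked by the rule above (called, smallest p, fixed core or shifted ends), these changed sign, all with an adjusted p above 0.05. With DESeq2, Slc25a23 was at -0.039 and Timm13 at -0.0495. With DESeq2 size factors Slc25a23 was at -0.041 and Timm13 at -0.064. With the median gene near 0, Slc25a22 was at 1.07, Slc25a3 at 0.79, Slc25a4 at 0.39, Slc25a5 at 0.10, Timm10 at 0.86, Timm17a at 1.00, Timm22 at 0.33, Timm23 at 0.75, Timm50 at 0.50, Tomm20 at 1.11, Tomm22 at 0.055 and Tomm40 at 0.44. With ERCC scaling, Slc25a23 was at -2.14, Slc25a51 at -2.12, Timm10b at -2.29, Timm13 at -2.49, Timm17b at -2.15, Timm8b at -1.72, Timm9 at -2.10 and Tomm7 at -0.81. With exon counts Timm9 was at -0.16. Without the block, Timm10 was at 0.16, Timm23 at 1.14 and Tomm20 at 0.052. With 2 rounds only, Slc25a23 was at -0.017, Timm13 at -0.14 and Timm17b at -0.36. With 3 rounds only, Slc25a12 was at 0.49, Slc25a22 at 0.30, Slc25a3 at 0.31, Slc25a4 at 0.29, Slc25a5 at 0.50, Timm10 at 0.60, Timm50 at 0.53, Tomm20 at 0.81, Tomm22 at 0.58 and Tomm70a at 0.29. With 1 neuron left out, Timm13 ranged from -0.026 (without neuron 5) to 0.72, Tomm20 from -0.61 to 0.074 (above 0 without neuron 13 or 15), and Slc25a22 from -0.54 to 0.0054 (without neuron 15). Outside that rule, over the 12 fits with other settings, Tomm5 ranged from -2.88 to 0.97, Tomm6 from -2.23 to 1.83 and Tomm34 from -3.42 to 0.65. Tomm40l ranged from -2.21 to 1.72 and Slc25a39 from -2.31 to 1.36. With 1 neuron left out, Tomm5 ranged from -0.86 to 0.0093, Tomm40l from -0.11 to 0.76 and Slc25a39 from -0.31 to 0.32.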
